A study of Mus musculus with 6 samples.

Results

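Of the genes on the arrays, 8 that act in the PIWI-interacting RNA (piRNA) pathway or in the silencing of transposons beside it are described here: Piwil1, Piwil2, Tdrd1, Mael, Mov10l1, Asz1, Fkbp6 and Morc1. They were listed by name, and every probe whose design accession maps to one of them was taken, which gave 11 of the 41174 probes on each array and 8 of the 16535 genes named on it. All 11 probes were well above background on all 6 arrays, and all were tested. Total RNA came from male gonads of E14.5 embryos on a mixed ICR and N2 background. There were 2 arrays each for Nanos2+/-, which keeps 1 working allele, for Nanos2-/-, which has none, and for Nanos2-/-_Tg, a null that carries a 3×FLAG-tagged Nanos2-ΔN10 transgene. The transgene lacks the start of the protein, is driven by the Nanos2 enhancer and came from a single line. No wild-type gonad was on the arrays, and the labels do not say whether a sample was 1 embryo or a pool, so p-values measure only the spread between these samples, which may be technical.

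piRNAs are small RNAs of germ cells that guide PIWI proteins to transposon transcripts, which are cut or silenced at their source. In the fetal testis the pathway starts in male germ cells after they stop dividing, and it directs DNA methylation to transposon sequences. NANOS2 is an RNA-binding protein of the same germ cells that recruits the CCR4-NOT deadenylation complex, and the truncated form was made to lose that contact. The comparisons ask how piRNA pathway transcripts differ without NANOS2, and whether they differ when the truncated form is present.

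Promoter sequences, 300 bases each from 250 before to 50 after a RefSeq start (GRCm38.p6), were on hand for 6 of the 8 genes, Piwil1, Tdrd1, Mael, Mov10l1, Asz1 and Fkbp6. They are shown because 5 of the 6 hold the same letters. The letters are the E-box CACGTG, which reads the same on both strands. It was in 2349 of all 32851 promoters (7.15%), in 8.09% of the 27025 genes with a promoter and in 11.3% of the 11378 promoters with at least 15 CpG dinucleotides, a limit set after the sequences had been seen. Among other lists, it was in 4 of 14 other piRNA pathway genes, 3 of 10 chromatin factors that silence transposons (Dnmt3a, Dnmt3l and Ehmt2), 1 of 11 paralogues of the members and 1 of 4 germ cell markers. That marker, Ddx4, was also 1 of the 4 other pathway genes. The sequences run 5′ to 3′ on the strand of the gene, with the E-box in capitals.
Piwil1, chr5:128735996-128736295, plus strand: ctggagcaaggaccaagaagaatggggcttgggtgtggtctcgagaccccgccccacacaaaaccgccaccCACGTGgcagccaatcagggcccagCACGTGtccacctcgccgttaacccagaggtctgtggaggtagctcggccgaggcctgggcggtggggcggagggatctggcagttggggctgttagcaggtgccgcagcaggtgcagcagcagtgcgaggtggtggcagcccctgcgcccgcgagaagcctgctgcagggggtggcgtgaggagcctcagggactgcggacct
Tdrd1, chr19:56825959-56826258, plus strand: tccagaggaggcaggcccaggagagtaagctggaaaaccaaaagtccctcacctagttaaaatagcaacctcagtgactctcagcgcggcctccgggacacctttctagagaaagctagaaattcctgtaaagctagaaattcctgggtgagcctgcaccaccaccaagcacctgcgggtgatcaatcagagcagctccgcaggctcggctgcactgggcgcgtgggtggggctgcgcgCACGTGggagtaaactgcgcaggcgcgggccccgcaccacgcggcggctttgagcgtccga
Mael, chr1:166238932-166238994, minus strand, first bases of the promoter: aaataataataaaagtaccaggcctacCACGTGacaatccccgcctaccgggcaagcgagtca
Mov10l1, chr15:88982744-88982783, plus strand, first bases of the promoter: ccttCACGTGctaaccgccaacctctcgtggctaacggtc
Fkbp6, chr5:135350110-135350175, minus strand, distal E-box: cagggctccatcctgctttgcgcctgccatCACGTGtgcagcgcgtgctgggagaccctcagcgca
Fkbp6, chr5:135350046-135350111, minus strand, proximal E-box: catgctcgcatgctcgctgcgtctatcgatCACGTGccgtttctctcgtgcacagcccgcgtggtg
The Piwil1 promoter holds the E-box 2 times, starting 179 and 154 bases before the transcription start. In Tdrd1 it starts 11 bases before the start shown, and a later listed start of this gene, in a promoter with 3 CpG dinucleotides, has none. Mael has it 223 and Mov10l1 246 bases before the start. Fkbp6 has 2, at 101 and 37 bases before one of its listed starts. The Asz1 promoter has none. The E2F letters GGCGGGAA (2.19% of all promoters), the MYB letters AACNGTT (4.45%) and the CRE letters TGACGTCA (1.79%), searched on both strands, were in none of the 6 genes. A match only describes the letters of these windows.

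The probe for Nanos2 followed the labels. On the log2 scale of scaled signals its 2 values were 9.42 and 10.78 for Nanos2+/-, and 13.28 and 14.25 for Nanos2-/-_Tg, while both Nanos2-/- arrays had it not well above background. Nanos2+/- exceeded Nanos2-/- by at least 89.7-fold (limma adjusted p = 0.00199). On the arrays, 64.1 to 66.6% of probes were well above background, and no spot was saturated. Both Nanos2+/- arrays shared 1 slide and the 4 null arrays another, so in both comparisons with Nanos2+/- slide and genotype cannot be told apart. Nanos2-/-_Tg and Nanos2-/- were compared within 1 slide.

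The 8 genes stood lower in Nanos2-/- gonads than in Nanos2+/- gonads at all 11 probes, where 55.3% of all tested probes did. Asz1, at -0.01, lay above the median of all probes (-0.04). With 75th percentile or quantile scaling 10 of 11 stood lower. Under normexp background correction, another way to remove local background, 9 of the 11 stood higher, with the median of all probes at 0.56. Relative to that median 8 of 11 were lower. Piwil1 and Mov10l1 probe A_52_P240424 stood lower either way. None of the 11 probes passed the test, which asked for a Benjamini-Hochberg adjusted limma p below 0.05 over 26702 probes with at least a 2-fold change. The median of the 11 log2 changes was -0.48, against -0.04 over all probes tested. In Nanos2-/-_Tg 8 of 11 were lower than in Nanos2+/- (51.7% of all tested probes), with a median of -0.41 against -0.01, and 5 of these turned under normexp. Within the shared slide 9 of 11 were higher in Nanos2-/-_Tg than in Nanos2-/- (56.8% of all tested probes), with a median of 0.25 against 0.03. Some genes count 2 times there. By the brightest probe of each gene, 8 of 8 genes were lower in Nanos2-/- than in Nanos2+/- (median -0.47), 5 of 8 in Nanos2-/-_Tg (median -0.14), and 8 of 8 were higher in Nanos2-/-_Tg than in Nanos2-/- (median 0.28). Both counts of 8 of 8 rest on the same 2 Nanos2-/- arrays, so they are not separate results. Nanos2-/- replicate 1 read below replicate 2 at every member probe, so the probes moved together. Their median absolute difference was 0.29, against 0.20 over all probes tested. Single arrays moved the counts and medians. Without Nanos2+/- replicate 1, 9 of 11 probes were lower in Nanos2-/- (median -0.33 against -0.16 over all probes) and 6 of 11 in Nanos2-/-_Tg (median -0.16 against -0.12). Without Nanos2-/- replicate 1, 6 of 11 were higher in Nanos2-/-_Tg than in Nanos2-/- (median 0.11 against -0.03), without Nanos2-/- replicate 2 10 of 11 were (median 0.38 against 0.09), and without Nanos2-/-_Tg replicate 1 8 of 11 were (median 0.12 against 0.06). The plot of signals by array shows each gene.

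**Figure D1:**
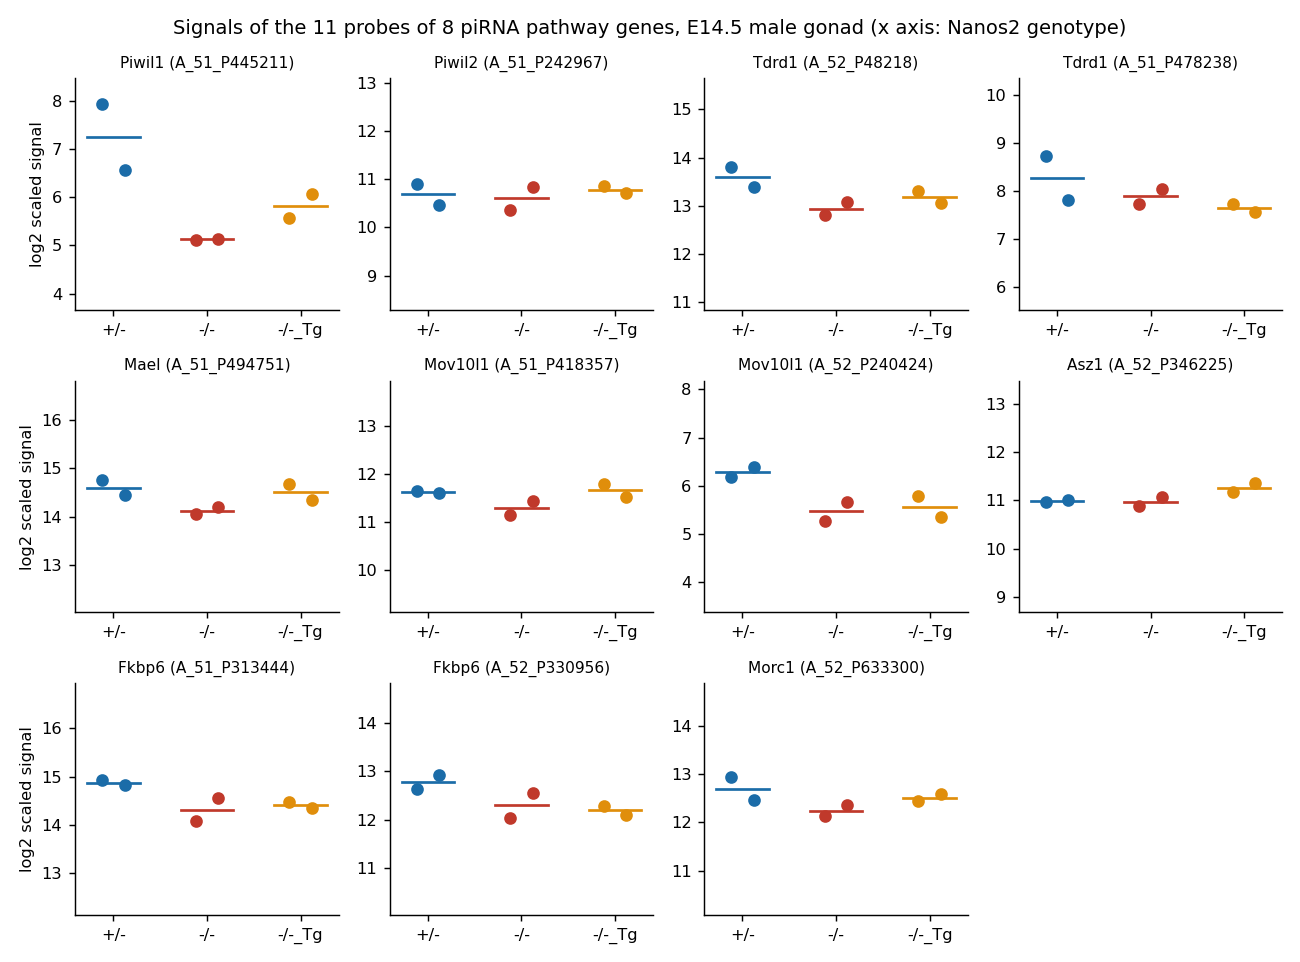
log2 scaled signal (y axis) of each of the 11 probes in Nanos2+/- (blue), Nanos2-/- (red) and Nanos2-/-_Tg (orange), 1 point per array and a line at the mean of 2. Every panel spans the same range of log2 units; Piwil1 sits at 7.92 and 6.56 in Nanos2+/- and at 5.12 and 5.13 in Nanos2-/-, and its points spread the most.

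Piwil1 encodes MIWI, a PIWI protein best known from meiotic and later male germ cells. Its single probe read 7.92 and 6.56 in the Nanos2+/- arrays, 5.12 and 5.13 in Nanos2-/- and 5.58 and 6.06 in Nanos2-/-_Tg. Both Nanos2+/- arrays lay above all 4 null arrays, and both transgenic arrays above both Nanos2-/- arrays. The mean was 7.24 ± 0.97 (SD, n = 2) in Nanos2+/-, 5.12 ± 0.01 in Nanos2-/- and 5.82 ± 0.34 in Nanos2-/-_Tg. Nanos2-/- was 4.33-fold lower than Nanos2+/- (log2 change -2.11, SE 0.41, limma adjusted p = 0.205). Nanos2-/-_Tg was 2.67-fold lower than Nanos2+/- (change -1.42, limma adjusted p = 0.248). Between the 2 nulls the change was 0.70, with a 95% confidence interval from -0.26 to 1.66 and a limma adjusted p of 1.

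The 2 Nanos2+/- arrays differed by 1.37 at Piwil1, against a median of 0.33 over all probes, so the size of its change depended on which of them was used. Without Nanos2+/- replicate 1 the change in Nanos2-/- was -1.43, and that in Nanos2-/-_Tg -0.74. Without Nanos2+/- replicate 2 they were -2.80 and -2.10. In that last case the limma adjusted p in Nanos2-/- was 0.0544 over the same probes and 0.0393 when the background filter was redone on the arrays left, so the call turned on the filter.

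**Figure D2:**
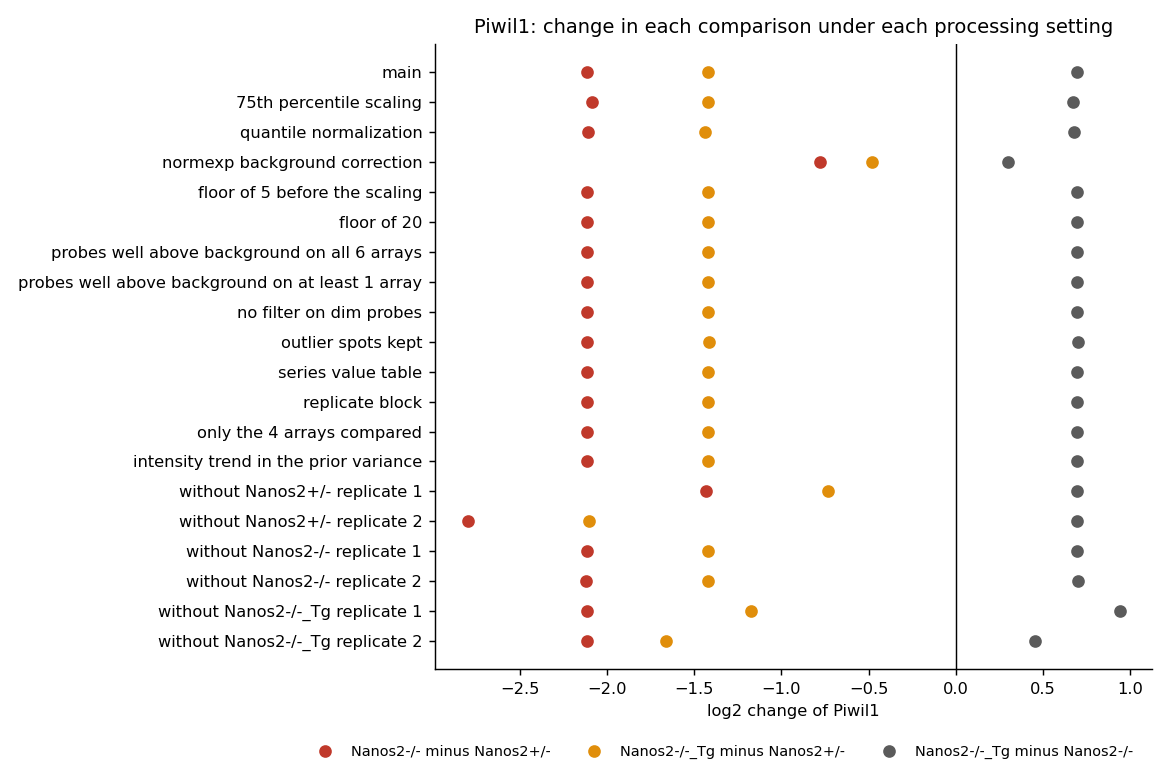
log2 change of Piwil1 (x axis) in the 3 comparisons under the processing of the report (main) and each alternative (y axis), 1 point each. The change from Nanos2+/- stays below 0 in each setting drawn, from -2.80 to -0.78 in Nanos2-/-, and is nearest 0 under normexp background correction.

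Piwil2 encodes MILI, the PIWI protein that cuts transposon transcripts in fetal germ cells. It read 10.89 and 10.47 in Nanos2+/-, 10.36 and 10.85 in Nanos2-/- and 10.85 and 10.70 in Nanos2-/-_Tg. The 3 genotypes overlapped. The change in Nanos2-/- was -0.08 (SE 0.24, limma adjusted p = 0.957), with a 95% interval from -0.65 to 0.49, and in Nanos2-/-_Tg 0.10.

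Tdrd1 encodes a Tudor domain protein that binds methylated arginines of PIWI proteins. Its brighter probe, A_52_P48218, read 13.80 and 13.40 in Nanos2+/-, 12.80 and 13.07 in Nanos2-/- and 13.31 and 13.06 in Nanos2-/-_Tg. Both Nanos2+/- arrays lay above all 4 null arrays, while the 2 nulls overlapped. The change in Nanos2-/- was -0.66 (SE 0.22, limma adjusted p = 0.423). In Nanos2-/-_Tg it was -0.41 (limma adjusted p = 0.545). The dimmer probe, A_51_P478238, read 8.73 and 7.81, then 7.73 and 8.04, then 7.72 and 7.56 in the same order of genotypes. There Nanos2+/- replicate 2 lay between the Nanos2-/- arrays, and the change in Nanos2-/- was -0.38 (limma adjusted p = 0.782). Between the nulls the probes differed in sign, 0.25 at the brighter and -0.24 at the dimmer.

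Mael encodes Maelstrom, a nuage protein needed to silence transposons. It read 14.75 and 14.45 in Nanos2+/-, 14.05 and 14.20 in Nanos2-/- and 14.67 and 14.35 in Nanos2-/-_Tg. The Nanos2-/- arrays were the lowest, and the transgenic arrays overlapped those of Nanos2+/-. The change in Nanos2-/- was -0.48 (SE 0.21, limma adjusted p = 0.562) and in Nanos2-/-_Tg -0.09 (limma adjusted p = 0.919). Between the nulls it was 0.39, with a 95% interval from -0.10 to 0.88.

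Mov10l1 encodes the RNA helicase that takes up piRNA precursors. Its probe A_51_P418357 read 11.64 and 11.61 in Nanos2+/-, 11.15 and 11.44 in Nanos2-/- and 11.79 and 11.52 in Nanos2-/-_Tg. The Nanos2-/- arrays were the lowest, with a change of -0.33 (limma adjusted p = 0.705), and the transgenic ones lay on either side of Nanos2+/- (change 0.03). Probe A_52_P240424 read 6.18 and 6.40, then 5.28 and 5.66, then 5.78 and 5.36. Here both nulls lay below Nanos2+/-, with changes of -0.82 (SE 0.23, limma adjusted p = 0.344) and -0.72 (limma adjusted p = 0.293). The probes thus differed by 0.75 in the comparison of Nanos2-/-_Tg with Nanos2+/-.

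Asz1 encodes GASZ, a scaffold protein of the nuage beside mitochondria. It read 10.97 and 11.01 in Nanos2+/-, 10.89 and 11.06 in Nanos2-/- and 11.17 and 11.36 in Nanos2-/-_Tg. The transgenic arrays were the highest. The change in Nanos2-/- was -0.01 (95% interval from -0.45 to 0.42), and in Nanos2-/-_Tg 0.28 (limma adjusted p = 0.638).

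Fkbp6 encodes a co-chaperone of heat shock protein 90 that helps to load piRNAs. Its probe A_51_P313444 read 14.92 and 14.83 in Nanos2+/-, 14.09 and 14.55 in Nanos2-/- and 14.47 and 14.34 in Nanos2-/-_Tg. Both Nanos2+/- arrays lay above all 4 null arrays. The changes were -0.56 (SE 0.21, limma adjusted p = 0.491) and -0.47 (limma adjusted p = 0.455). Probe A_52_P330956 read 12.64 and 12.93, then 12.03 and 12.55, then 12.29 and 12.10, in the same order, with changes of -0.49 and -0.59. The 2 probes differed by 0.07 in Nanos2-/- and by 0.12 in Nanos2-/-_Tg.

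Morc1 encodes a nuclear ATPase required for transposon repression in male germ cells. It read 12.93 and 12.45 in Nanos2+/-, 12.13 and 12.35 in Nanos2-/- and 12.43 and 12.59 in Nanos2-/-_Tg. The Nanos2-/- arrays lay below both others, and the transgenic arrays overlapped those of Nanos2+/-. The changes were -0.45 (limma adjusted p = 0.614) and -0.18 (limma adjusted p = 0.826).

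**Figure D3:**
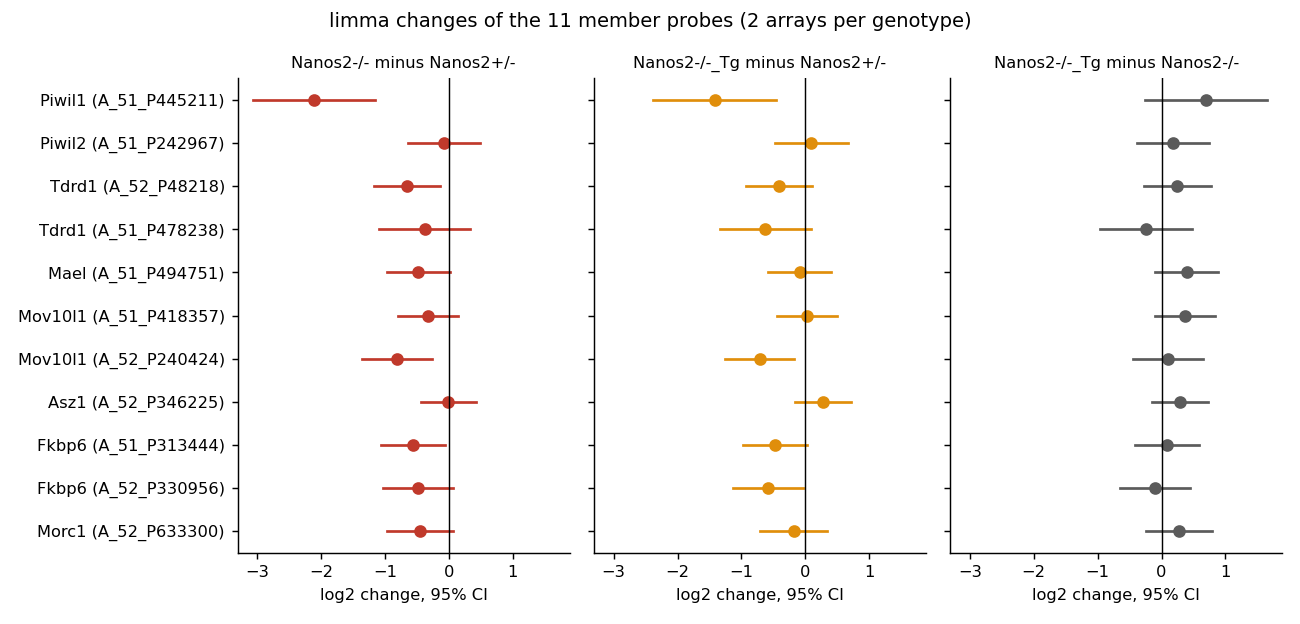
log2 change (points) with its 95% confidence interval (lines) of each probe in the 3 comparisons, from limma with 2 arrays per genotype. The intervals of Piwil1 and of Mov10l1 probe A_52_P240424 lie below 0 in both comparisons with Nanos2+/-, those of Tdrd1 A_52_P48218 and Fkbp6 A_51_P313444 in Nanos2-/- and that of Fkbp6 A_52_P330956 in Nanos2-/-_Tg, while in the comparison of the 2 nulls every interval holds 0.

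Counted over the probes, none was called in Nanos2-/- against Nanos2+/-, where 0.0674% of all tested probes were (18 probes). None was called in Nanos2-/-_Tg against Nanos2+/- (0.105%, 28 probes, and 145 with the replicate number as a block) or against Nanos2-/- (0.0187%, 5 probes). At an unadjusted limma p below 0.05, 4 of 11 probes were lower in Nanos2-/- than in Nanos2+/-, against 5.74% of all tested. In Nanos2-/-_Tg 3 of 11 were, against 6.7%, and none was higher in Nanos2-/-_Tg than in Nanos2-/-, against 1.34%. With no overlap between the arrays, 8 of 11 probes were lower in Nanos2-/- than in Nanos2+/-, against 21.7% of all tested, 6 of 11 lower in Nanos2-/-_Tg, against 20.3%, and 5 of 11 higher in Nanos2-/-_Tg than in Nanos2-/-, against 20%. Both comparisons with Nanos2+/- share its arrays, and both comparisons with Nanos2-/- share the Nanos2-/- arrays. An exact rank test of 2 arrays against 2 cannot give a two-sided p below 0.333.

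**Figure D4:**
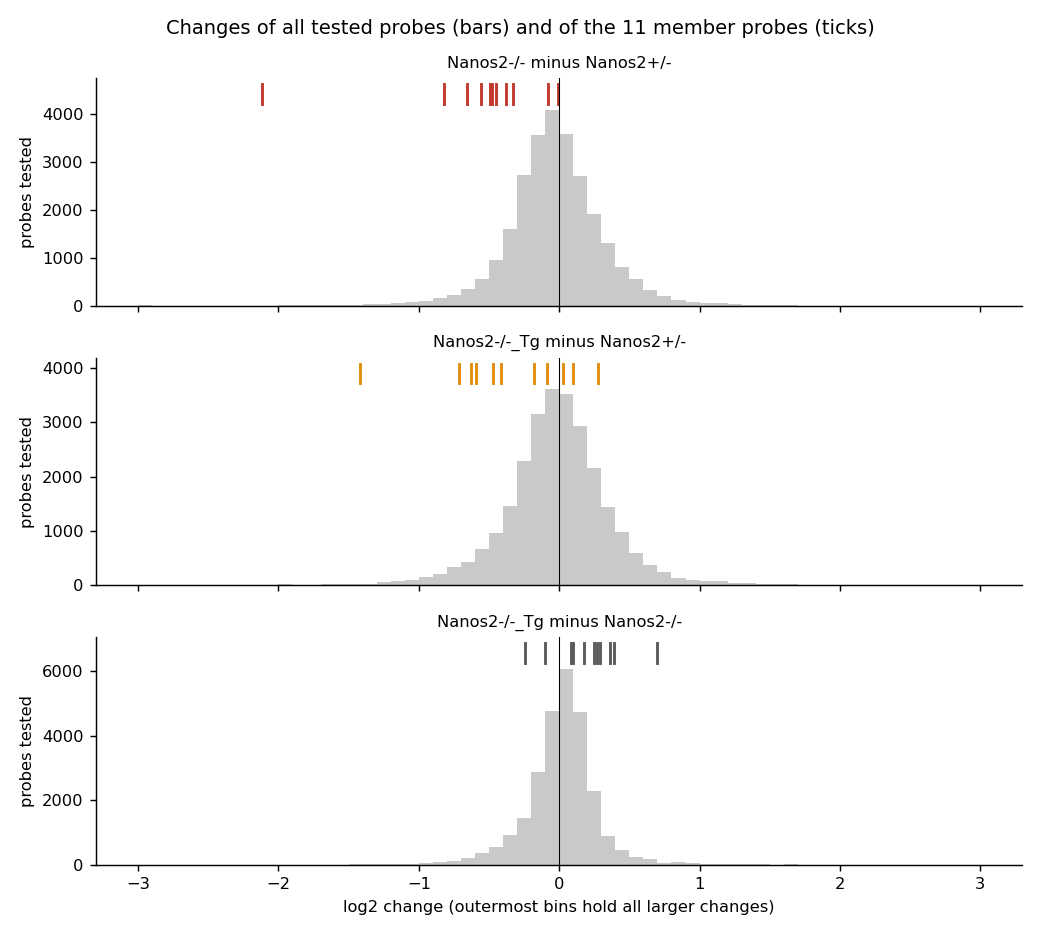
Number of tested probes (y axis) by log2 change (x axis) in the 3 comparisons, with a tick for each of the 11 member probes. In Nanos2-/- minus Nanos2+/- all ticks lie at or below -0.01, with Piwil1 alone beyond -1. Under normexp background correction 9 of 11 turn, while the median of all probes moves to 0.56 and 8 of 11 lie below it. In Nanos2-/-_Tg minus Nanos2-/- 9 ticks lie above 0.

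Other genes of the pathway were taken from a list of 21, of which 10 were matched on the array and 8 were tested. None passed the test in any of the 3 comparisons. Of the 8, 6 were lower in Nanos2-/- than in Nanos2+/- (median -0.27, from -0.79 to 0.32), 5 were lower in Nanos2-/-_Tg (median -0.10), and 8 were higher in Nanos2-/-_Tg than in Nanos2-/- (median 0.14, from 0.008 to 0.24). Under normexp these counts were 1, 1 and 6 of 8, with all-probe medians of 0.56 and 0.52 against Nanos2+/-. Between the nulls 56.8% of all tested probes were higher, and 2 of the 8 genes lay below the all-probe median of 0.03. There 6 of 8 were higher with 75th percentile scaling and 5 of 8 with quantile normalization. Henmt1, which methylates the ends of piRNAs, was at -0.79 in Nanos2-/- (limma adjusted p = 0.549) and at -0.68 in Nanos2-/-_Tg (limma adjusted p = 0.498). Exd1, a partner of a Tudor protein, was at -0.44 and -0.43, and Tdrd7, another Tudor protein, at -0.33 in Nanos2-/-. Stk31 was at 0.33 in Nanos2-/-_Tg against Nanos2+/-. Between the nulls Tex15 was at 0.24, Tdrd7 at 0.21 and Ddx4, the germ cell helicase, at 0.18. Tdrd6 and Mybl1 were too dim to be tested. Piwil4, Tdrd5, Tdrd9, Gtsf1, Pld6 and Spocd1 were among the listed genes not matched on the array, so the list covers the pathway only in part.

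Chromatin factors that silence transposons gave 10 tested genes, none of them called, with medians of -0.06, 0.01 and 0.09 in the 3 comparisons. Under normexp 9 of 10 were higher in both comparisons with Nanos2+/-, with medians of 0.85 and 0.87, against 0.56 and 0.52 over all probes. Dnmt3l, the cofactor of fetal DNA methylation, was furthest from 0. It read 13.40 and 11.12 in Nanos2+/-, 10.09 and 9.99 in Nanos2-/- and 10.66 and 10.06 in Nanos2-/-_Tg, with both Nanos2+/- arrays above the rest. Its changes were -2.22 (SE 0.63, limma adjusted p = 0.344) and -1.90 (limma adjusted p = 0.303). Dnmt3b, a DNA methyltransferase, was at 0.71 (limma adjusted p = 0.508) and 0.87 (limma adjusted p = 0.288). Hells, a chromatin remodeller, was at 0.42 in Nanos2-/-_Tg against Nanos2+/-. Dnmt3a was at -0.33 in Nanos2-/- and at 0.37 between the nulls.

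Paralogues of the members, which share their protein families but are not among the pathway or silencing genes listed, gave 11 tested genes and no call, with medians of 0.01, 0.06 and 0.06. Under normexp 8 of 11 were higher in both comparisons with Nanos2+/-, with medians of 0.80 and 0.68, against 0.56 and 0.52 over all probes. The largest change of the list in Nanos2-/- against Nanos2+/- was that of Ago1, at -1.38 (limma adjusted p = 0.190). Ago1 also had the largest change between the nulls, 0.81, and stood at -0.56 in Nanos2-/-_Tg against Nanos2+/- (limma adjusted p = 0.452). It was dim, being well above background on only 3 arrays. Ago4, an Argonaute of microRNA pathways, was at -0.75 (limma adjusted p = 0.474) and -0.85 (limma adjusted p = 0.294). Ago3 was at -0.28 and Fkbp5 at 0.28 in Nanos2-/-. Fkbp5 and Morc4 were at 0.38 and 0.41 in Nanos2-/-_Tg against Nanos2+/-. Between the nulls Ago3 was at 0.34, Morc4 at 0.32 and Ago2 at -0.32.

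**Figure D5:**
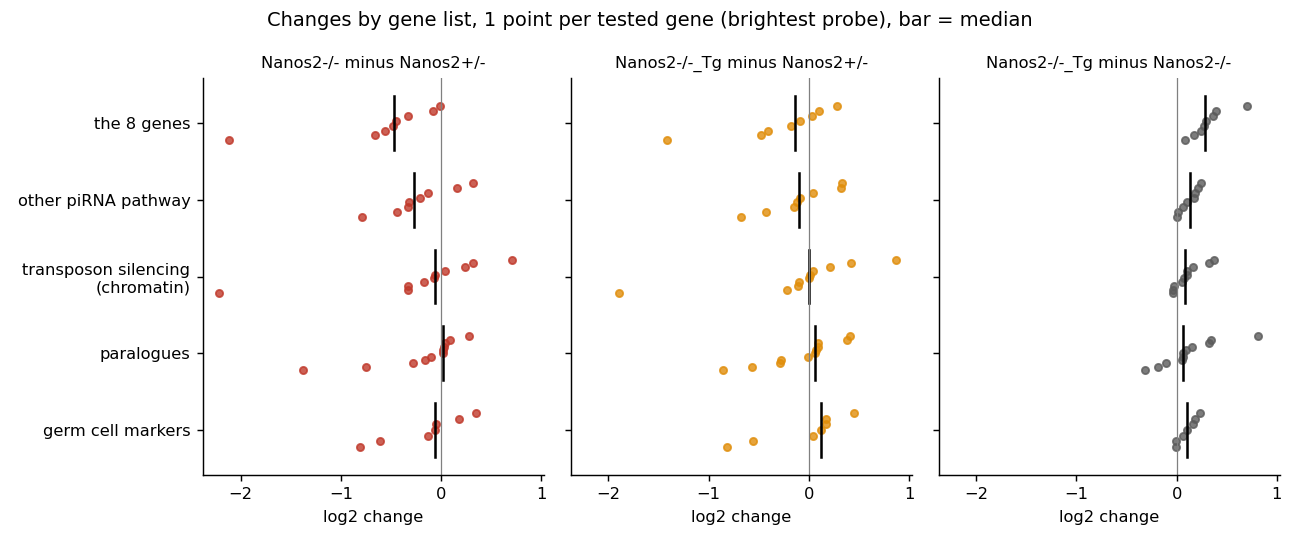
log2 change (x axis) of each tested gene, by its brightest probe, for the 8 genes and 4 other lists in the 3 comparisons, with a bar at the median. The median of the 8 genes is -0.47 in Nanos2-/- minus Nanos2+/-, that of the germ cell markers -0.06.

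Since whole gonads were measured, fewer germ cells and less RNA per germ cell cannot be told apart. The summed signal of the 8 genes ranged, on the log2 scale, between 16.19 and 16.43 in Nanos2+/-, between 15.65 and 15.95 in Nanos2-/- and between 15.96 and 16.14 in Nanos2-/-_Tg. That of 7 germ cell markers ranged from 15.72 to 16.03, from 15.46 to 15.78 and from 15.64 to 15.84. Of these markers 5 of 7 were lower in Nanos2-/- than in Nanos2+/- (median -0.06) and 2 of 7 in Nanos2-/-_Tg (median 0.12). Under normexp 0 of 7 were lower in both, with medians of 0.65 and 0.70, against 0.56 and 0.52 over all probes. In both, 2 of 7 lay below the median of all probes. Dnd1 stood at -0.81 and -0.82 (limma adjusted p = 0.258 and 0.176), and Dppa4 at -0.61 in Nanos2-/-. Ddx4, also in the list of other pathway genes, stood at -0.13 and Dazl at 0.34 in Nanos2-/-. The part of germ cell content in the members' values was not tested. No gene was called among the 7 Sertoli cell, 4 Leydig cell, 4 mesonephros, 5 erythroid, 4 endothelial, 3 macrophage and 7 mitosis genes tested, whose medians lay between -0.15 and 0.16 in Nanos2-/- and between -0.26 and 0.23 in Nanos2-/-_Tg against Nanos2+/-. Under normexp these medians lay between 0.41 and 1.02, and between 0.38 and 1.15. Dmrt1, in the Sertoli cell list but also of germ cells, was at 1.25 and 1.46, and the embryonic globins differed by over 1 unit between replicates of Nanos2+/- and between those of Nanos2-/-_Tg.

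Profiles over the 6 arrays were compared by the root mean square difference of log2 values, each centred on its mean, across 12448 genes well above background on every array. Nearest to Piwil1 were Cpn1 (0.12), Celf6 (0.28) and Bhmt2 (0.30), against a median of 1.00 over all genes. Cpn1 read 7.19 and 5.95 in Nanos2+/-, 4.15 and 4.29 in Nanos2-/- and 4.65 and 5.17 in Nanos2-/-_Tg. Nearest to the brighter Tdrd1 probe were Sgsm1 (0.05), Il18 (0.06) and Nphp4 (0.07), against a median of 0.36. Among the members Fkbp6 probe A_51_P313444 (0.13), Mael (0.14) and Morc1 (0.16) were nearest to Tdrd1, with 0.378, 0.554 and 0.956% of genes nearer. The other Fkbp6 probe (0.26) and the dimmer probe of Tdrd1 itself (0.25) had 9.36 and 8.66% of genes nearer. Piwil2 and Asz1 were farther, with 11.8 and 51.3% of genes nearer, and Piwil1 was the farthest member (0.71, with 97.8% of genes nearer). The profiles were not scaled, so the size of a change counts as well as its pattern. Seen from Piwil1, the brighter Tdrd1 probe was the nearest member probe, with 2.35% of genes nearer. These are descriptions over 6 arrays that share slides and genotypes.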

How the data were processed

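Gonad RNA (0.20 µg per array) was labelled with Cy3 and hybridized to Agilent whole mouse genome arrays, 2 per genotype. The authors extracted intensity values with Feature Extraction (version 9.5.3.1 per the file headers), which subtracts background. The deposited value table holds the same processed intensity within 0.497%. The methods state a floor of 5 and scaling to the 50th percentile. Here controls and outlier spots were left out, each array was scaled to a common 50th percentile, lower values were set to 5, log2 was taken and spots of a probe were averaged, and probe accessions were named through a RefSeq table (23374 of 41174 probes). A probe entered the test if both arrays of some genotype had it well above background (26702 with a fit, 12976 genes). limma 3.58.1 in R 4.3.3 was run over all 6 arrays, with genotype as the only term and 4.55 prior degrees of freedom. The precision is limited by the number of arrays. The fit was tested on simulated data. Calls needed an adjusted p (Benjamini-Hochberg) below 0.05 and a change of at least 2-fold.

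The members and gene lists were chosen with earlier results of these data known. Every member probe is named. From the other pathway, silencing and paralogue lists, by brightest probe, called genes and the 3 with the largest change among those well above background on all 6 arrays are named, and for Piwil1 and Tdrd1 the 3 genes of the most similar profile. Ago1 and the genes from the marker lists were named after their values had been seen. Promoters are RefSeq entries (GRCm38.p6), used only for sequence. They were searched with Python 3.11.15 and pandas 2.3.3, and figures were drawn with matplotlib 3.10.9.

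The alternatives were 75th percentile and quantile scaling, normexp background correction (offset 50, from median signals and median backgrounds, since the scanner output held no mean signals), the floor before scaling or at 20, 3 other background filters, outlier spots kept, the value table, a block for the replicate number, a fit on the 4 arrays compared alone, an intensity trend, unadjusted limma p, the methods' t-test and each array left out. The left-out arrays were first run with the filter redone on the arrays left. The version with the probes of the full fit came after that call of Piwil1 had been seen. Both are given, the first as an alternative added later.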

Additional observations from a re-analysis of the deposited data

How the results depend on the processing

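No member probe was called under any setting but these. With unadjusted limma p the count was 1 (Piwil1) in Nanos2-/- and 1 (Piwil1) in Nanos2-/-_Tg against Nanos2+/-. With each array left out it ranged from 0 to 1 in Nanos2-/- against Nanos2+/-: the 1 was Piwil1 without Nanos2+/- replicate 2, with the background filter redone on the arrays left (change -2.80, adjusted p = 0.0393). With the probes of the full fit, as run later, its adjusted p was 0.0544 and it was not called. In the other settings with an array left out, of both kinds, the count was 0.

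Normexp background correction raised the median of all probes to 0.56 in Nanos2-/- and 0.52 in Nanos2-/-_Tg against Nanos2+/-, and turned the sign of 14 member changes. In Nanos2-/- these were Piwil2 0.85, Tdrd1 0.19 and 0.37, Mael 0.51, Mov10l1 (A_51_P418357) 0.60, Asz1 0.93, Fkbp6 0.46 and 0.52, and Morc1 0.54. In Nanos2-/-_Tg they were Tdrd1 (A_52_P48218) 0.59, Mael 0.84, Fkbp6 0.49 and 0.41, and Morc1 0.74. Relative to the median of all probes, 8 of 11 were lower in Nanos2-/- (median -0.05) and 5 of 11 in Nanos2-/-_Tg (median 0.07). Piwil1 stayed lower, at -0.78 and -0.48, as did Mov10l1 probe A_52_P240424, at -0.43 and -0.40. Tdrd1 probe A_51_P478238 stayed lower in Nanos2-/-_Tg, at -0.02. Asz1 in Nanos2-/- turned to 0.0158 with the 75th percentile and to 0.0354 with quantile normalization.

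With each array left out, the sign turned in at least 1 case for these ranges. In Nanos2-/- against Nanos2+/- they were Piwil2 -0.33 to 0.16, Tdrd1 (A_51_P478238) -0.84 to 0.078 and Asz1 -0.096 to 0.073. In Nanos2-/-_Tg against Nanos2+/- they were Piwil2 -0.11 to 0.31, Mael -0.25 to 0.071, Mov10l1 (A_51_P418357) -0.10 to 0.16 and Morc1 -0.42 to 0.057. In Nanos2-/-_Tg against Nanos2-/- they were Piwil2 -0.068 to 0.42, Mov10l1 (A_52_P240424) -0.11 to 0.31, and Fkbp6 -0.15 to 0.32 and -0.36 to 0.16. The lone array left in a genotype was assumed to vary like the others. The cause was not tested.

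With the replicate number as a block, 0 member probes were called in each comparison, and 18, 145 and 4 probes in all against 18, 28 and 5. Replicate differences correlated at 0.355, 0.313 and 0.260 between the genotypes, over 2 arrays each, and Pou5f1 was higher in replicate 2 of each genotype (10.62 and 12.43, 10.53 and 12.39, 10.78 and 12.61). The labels do not say what a number marks, and whether the arrays are paired was not settled. Leaving aside unadjusted limma p and the methods' t-test, which keep the changes and alter only the p, 26 settings gave 858 member changes, of which 811 kept their direction and side of the threshold, 46 turned and 1 newly passed. Much of that count was fixed in advance. The floors, background filters, replicate block, intensity trend and fits on the compared arrays alone left the member medians as they were. So did leaving out an array outside the comparison. Each left-out array was counted in both versions, with the same member medians.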
